A study of Mus musculus with 9 samples.

Results

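The unfolded protein response and the integrated stress response were described here through 38 genes, out of 22071 genes named on the array. They were chosen by symbol from a list of 39, and a gene's probe sets were taken where the platform annotation gave exactly 1 symbol. The remaining symbol, Vldlr2, matched no probe set. All 38 genes passed the filter on weak signals, with 517 of their 622 probe sets and a median of 13 probe sets each (3 to 32), against a median of 10 over all 12646 genes tested. RNA came from C2C12 cells, an established mouse myoblast line grown in serum-containing medium, and was hybridised to exon arrays, on which most exons have a probe set of their own. The cells received Cugbp1 siRNA, Mbnl1 siRNA or control siRNA and were harvested 48 h later, with 3 arrays per group. The RNA-binding proteins encoded by these targets, CELF1 (the current name of CUGBP1) and MBNL1, control alternative splicing and mRNA stability. The labels do not say whether the replicates were separate cultures, so each p-value reflects only how far these arrays spread, and that spread may be technical.

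The endoplasmic reticulum (ER) folds secreted and membrane proteins. When unfolded proteins accumulate there, the membrane sensors IRE1 alpha, PERK and ATF6 raise the production of chaperones and of the machinery that degrades misfolded proteins, and PERK slows translation by phosphorylating the initiation factor eIF2 alpha. Other eIF2 alpha kinases, such as GCN2 in amino acid shortage, feed the same step, which favours translation of the factor ATF4 and transcription of genes for amino acid supply, redox balance and feedback on translation. Much of this signalling runs through phosphorylation, splicing of Xbp1 mRNA and translation of Atf4 mRNA, none of which these gene values measure.

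Both siRNAs lowered their targets. Celf1 stood at 8.67, 10.06 and 10.13 log2 units in the Cugbp1 siRNA, Mbnl1 siRNA and control siRNA means, and fell by 1.46 after Cugbp1 siRNA (SE 0.06, limma, Benjamini-Hochberg adjusted p = 9.01e-07). Mbnl1 stood at 11.50, 10.11 and 11.46, and its log2 change was -1.35 after Mbnl1 siRNA (SE 0.05, limma adjusted p = 3.97e-07). Array medians lay between 42.3 and 43.8 intensity units, and the leading principal component (54.2% of the variance) set all siRNA arrays apart from all control arrays. Myoblast markers were all measured: 4 of 10 were higher after Cugbp1 siRNA, and 2 were higher and 1 lower after Mbnl1 siRNA, with summed intensities of 30010 to 30270, 29000 to 30140 and 28850 to 29610 in Cugbp1, Mbnl1 and control arrays. Of 16 markers of blood, endothelial, epithelial, glial, liver and fat cells, 12 passed the filter, and 9 and 6 of these were lower after Cugbp1 and Mbnl1 siRNA. Of all genes tested, 26% and 26.9% were higher after Cugbp1 and Mbnl1 siRNA, and 12.7% and 14.6% lower. Some of the 12 markers passed on few probe sets (Ptprc 5 of 53, Csf1r 7 of 33, Pecam1 3 of 22), and others on more (Krt14 13 of 16). The summed intensity of the 12 was 2584 to 2858 on Cugbp1 siRNA arrays, 2761 to 2877 on Mbnl1 siRNA arrays and 3260 to 3275 on control arrays. A further 171 probe sets above the filter, of 135 olfactory, vomeronasal and taste receptor, defensin and keratin-associated genes, had median log2 changes of -0.18 and -0.17, against 0.08 for the other named probe sets in each comparison. The part of these signals in the results below was not tested. In a bulk culture, a change in the number of cells making an RNA and a change in the RNA per cell cannot be told apart.

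Some stress genes rose modestly after each knockdown and none fell with the arrays scaled as deposited, while other scalings, given further on, added up to 2 falls after Cugbp1 siRNA and 5 after Mbnl1 siRNA. After Cugbp1 siRNA 9 of the 38 genes were higher and 0 lower (limma, adjusted p under 0.05 over all genes), with a median log2 change of 0.08. Over all genes tested 38.7% were called in that comparison, 26% higher and 12.7% lower, with a median of 0.05, so the 23.7% of stress genes called higher lay near the background. After Mbnl1 siRNA 14 were higher and 0 lower, with a median of 0.12, against 41.5% called over all genes, 26.9% higher and 14.6% lower, and a median of 0.04. The 36.8% of stress genes called higher was above that background share and the 0 called lower was below it, and neither difference was tested. Called either way, the 23.7% and 36.8% of stress genes lay below the 38.7% and 41.5% of all genes. At an unadjusted p under 0.05, limma gave 11 higher and 1 lower after Cugbp1 siRNA (32.9% and 16.4% of all genes), and 21 higher and 0 lower after Mbnl1 siRNA (32.3% and 18.7% of all genes). The count after Mbnl1 siRNA was 7 without Mbnl1 siRNA replicate 3 and 9 without control replicate 3.

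The comparisons with control share the same 3 control arrays, so their likeness is no independent evidence. Dnajb9, Dnajb11, Creld2, Manf, Hyou1, Ern1, Eif2ak4, Ddit4 and Aldh1l2 were called higher in both, and Eif2ak3, Atf3, Edem1, Pdia4 and Asns in the Mbnl1 siRNA comparison alone. The other 24 stress genes were called in neither. Those called higher in both were 9 of 38, beside 17.7% of all genes tested, and the difference was not tested. The 3 arrays of each group did not overlap, with the siRNA arrays higher, for 13 stress genes after Cugbp1 siRNA (32.9% of all genes) and for 20 after Mbnl1 siRNA (37.3% of all genes). They did not overlap in the other direction for Chac1 and Mthfd2 after Cugbp1 siRNA (15.9% of all genes) and for Sdf2l1 after Mbnl1 siRNA (20.3% of all genes). In either direction, 48.8% and 57.5% of all genes had arrays that did not overlap. The largest fold of a called stress gene was 1.45, for Ddit4 after Cugbp1 siRNA.

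**Figure D1:**
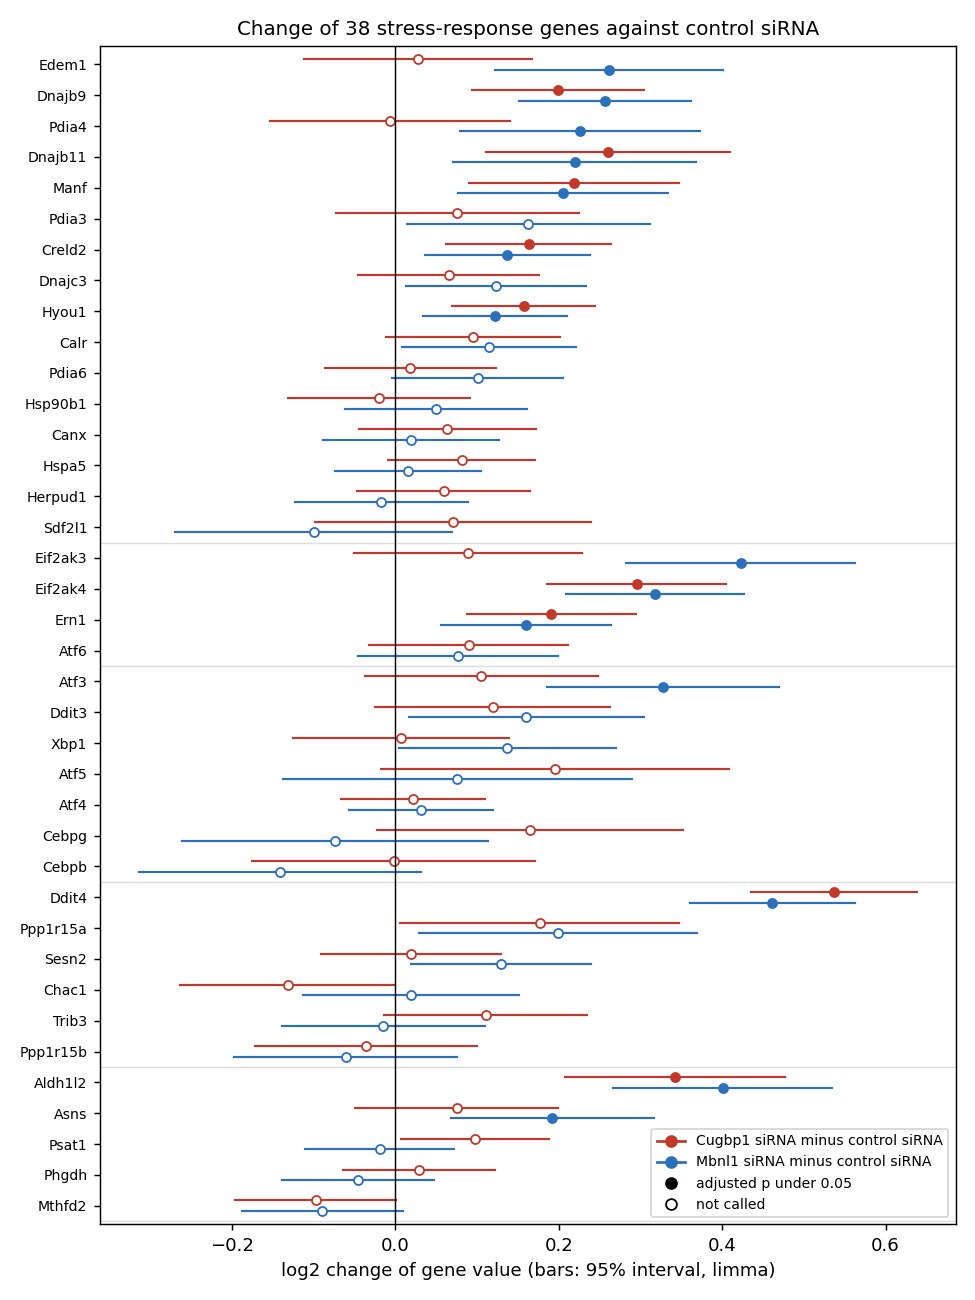
Log2 change of each of the 38 stress genes (x axis) after Cugbp1 siRNA (red) and Mbnl1 siRNA (blue), each minus control siRNA, with genes in rows grouped by role; points are limma estimates from 3 arrays per group, bars are 95% intervals, and filled points passed an adjusted p of 0.05. Filled points lie right of 0 only, with Ddit4 at 0.54 and 0.46, while Hspa5, Atf4 and Ddit3 are open in both colours.

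The chaperone genes include textbook targets of ATF6 and XBP1, which act through the ER stress response element. RefSeq promoter windows (build GRCm38.p6, 250 bases before to 50 after the start of a gene) were found for 33 stress genes, and not for Hyou1, Manf, Atf6, Ppp1r15b and Aldh1l2. Both strands were searched for CCAAT and CCACG with 9 bases of any kind between them, and for the second form of the element, ATTGG and CCACG with 1 base between them. The first lay in the windows of 7 stress genes (21.2%), Calr, Canx, Creld2, Dnajc3, Hsp90b1, Hspa5 and Pdia6, against 0.137% of all 27025 genes with a window. The second lay in those of Dnajb11 and Herpud1 (6.06%, against 0.0444%). The stress genes were listed for known roles in these pathways, so these shares describe the list. The UPR element TGACGTGG (0.714% of all genes) was in no window of a stress gene, which says only that these letters are absent from these windows. The C/EBP-ATF response element bound by ATF4 was searched in nested forms. TGATGCAAT (0.222%) and TGATGNAAT (1.08%) were in no window of a stress gene. TGATGNAA, with the last base left free after the windows had been seen, was in those of Asns, Atf3, Chac1, Herpud1 and Trib3 (15.2%, against 4.51% of all genes).

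Below are the windows of Hspa5, whose product BiP is the main ER chaperone, and of Creld2 and Dnajb11, the element-bearing genes called higher after both siRNAs. They are read along each gene's own strand, which is the plus strand for each, with the fixed letters of the element in capitals. Hspa5 lies at chr2:34771840-34772139, Creld2 at chr15:88819396-88819695 and Dnajb11 at chr16:22857595-22857894.
Hspa5: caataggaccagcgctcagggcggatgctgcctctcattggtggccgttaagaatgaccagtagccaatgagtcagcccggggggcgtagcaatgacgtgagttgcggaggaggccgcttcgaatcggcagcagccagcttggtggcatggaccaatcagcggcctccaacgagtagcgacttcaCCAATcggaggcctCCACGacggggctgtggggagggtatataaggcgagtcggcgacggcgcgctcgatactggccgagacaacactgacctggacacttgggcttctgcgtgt
Creld2: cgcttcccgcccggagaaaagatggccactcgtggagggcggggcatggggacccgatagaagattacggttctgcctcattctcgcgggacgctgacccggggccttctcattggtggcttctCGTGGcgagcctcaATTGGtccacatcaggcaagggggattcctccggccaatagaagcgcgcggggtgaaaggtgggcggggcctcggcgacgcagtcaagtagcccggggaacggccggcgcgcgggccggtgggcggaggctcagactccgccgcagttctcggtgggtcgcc
Dnajb11: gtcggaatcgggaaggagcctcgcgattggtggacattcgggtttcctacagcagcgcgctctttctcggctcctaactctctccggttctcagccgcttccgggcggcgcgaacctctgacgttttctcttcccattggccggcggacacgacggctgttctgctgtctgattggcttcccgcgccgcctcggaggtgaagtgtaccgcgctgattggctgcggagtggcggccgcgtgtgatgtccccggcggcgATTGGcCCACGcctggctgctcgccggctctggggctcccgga

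The element of Creld2 lies on the strand opposite to the gene, as does that of Calr and the nearer of a pair in Hsp90b1. The remaining sites are shown with 10 bases of flank on each side, along the gene's strand, for comparison of the spacer between the fixed letters, which differs from gene to gene.
Calr: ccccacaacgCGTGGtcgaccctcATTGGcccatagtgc
Canx: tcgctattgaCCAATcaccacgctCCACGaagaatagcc
Dnajc3: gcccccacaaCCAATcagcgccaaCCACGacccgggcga
Hsp90b1, far site: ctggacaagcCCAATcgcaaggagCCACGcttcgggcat
Hsp90b1, near site: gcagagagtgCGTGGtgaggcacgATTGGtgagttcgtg
Pdia6: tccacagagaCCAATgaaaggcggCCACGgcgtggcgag
Herpud1: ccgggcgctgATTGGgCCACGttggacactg
Relative to the annotated start, the Hspa5 element spans bases -65 to -47 and the far Hsp90b1 element -212 to -194. The Dnajb11 element lies 8 to 18 bases after the start. Of the 9 genes with an element, Creld2 and Dnajb11 alone, 2 of 9, were called higher in each comparison with control, with median log2 changes of 0.07 and 0.10 after Cugbp1 and Mbnl1 siRNA. Of the 24 stress genes with a window and no element, 4 and 9 were called higher, with medians of 0.08 and 0.15. Over all genes tested, 26% and 26.9% were called higher. The difference between stress genes with and without an element was not tested.

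Among the 16 genes of ER chaperones, folding and degradation, 5 were higher after Cugbp1 siRNA and 7 after Mbnl1 siRNA, with 0 lower in each (medians 0.07 and 0.12). These are 31.2% and 43.8% of the group, beside 26% and 26.9% of all genes called higher, and the same shares of all genes are the background for the smaller groups that follow. The most abundant chaperones of the ER were not among them. Hspa5 had log2 values of 11.97, 12.02 and 12.01 on the Cugbp1 siRNA arrays, 11.96, 11.94 and 11.90 on the Mbnl1 siRNA arrays, and 11.89, 11.92 and 11.95 on the control arrays. The Cugbp1 siRNA arrays lay just above the control arrays and the Mbnl1 siRNA arrays overlapped them. The log2 changes were 0.08 (95% interval -0.01 to 0.17, limma adjusted p = 0.133) and 0.02 (95% interval -0.07 to 0.11, limma adjusted p = 0.780). For Hsp90b1 (GRP94), Calr and Canx (the lectin chaperones calreticulin and calnexin), the disulfide isomerase genes Pdia3 and Pdia6, the co-chaperone gene Dnajc3, Sdf2l1 and the degradation gene Herpud1, the changes not called ran with Hspa5 from -0.02 to 0.09 after Cugbp1 siRNA and from -0.10 to 0.16 after Mbnl1 siRNA. After Mbnl1 siRNA 4 of these passed when single arrays were left out. They were Calr without Cugbp1 siRNA replicate 1 (limma adjusted p = 0.0326), Dnajc3 without control replicate 2 (0.0101), Pdia3 without Cugbp1 siRNA replicate 1 (0.0418) or control replicate 1 (0.0416), and Sdf2l1, as lower, without Cugbp1 siRNA replicate 1 (0.0258).

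Some of the other chaperone genes were called. Dnajb9, which encodes the co-chaperone ERdj4, had log2 values of 9.36, 9.22 and 9.34 with Cugbp1 siRNA, 9.35, 9.34 and 9.41 with Mbnl1 siRNA, and 9.13, 9.09 and 9.11 with control siRNA. Every siRNA array exceeded every control array, and all 6 of its probe sets were higher in each comparison. The changes were 0.20 ± 0.05 and 0.26 ± 0.05 (SE; limma adjusted p = 0.00933 and 0.00224), and both calls held when any 1 array was left out.

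Dnajb11, which encodes the co-chaperone ERdj3, had 9.30, 9.51 and 9.43 with Cugbp1 siRNA, 9.39, 9.31 and 9.41 with Mbnl1 siRNA, and 9.25, 9.16 and 9.05 with control siRNA. Neither siRNA group overlapped the controls. The changes were 0.26 ± 0.07 and 0.22 ± 0.07 (SE; limma adjusted p = 0.0133 and 0.0249). The call after Mbnl1 siRNA was lost without Mbnl1 siRNA replicate 1 or 3 (limma adjusted p = 0.0701 and 0.0790) or control replicate 3 (0.0837).

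Hyou1, the nucleotide exchange factor GRP170 of BiP, had 9.56, 9.62 and 9.64 with Cugbp1 siRNA, 9.56, 9.58 and 9.57 with Mbnl1 siRNA, and 9.47, 9.43 and 9.44 with control siRNA. The siRNA arrays again lay above the controls, by 0.16 ± 0.04 and 0.12 ± 0.04 (SE; limma adjusted p = 0.0120 and 0.0315), or 1.11-fold and 1.09-fold. Of its 28 probe sets above the filter, 23 and 21 were higher. The call after Mbnl1 siRNA was lost in 7 of 9 omissions, those of each Mbnl1 siRNA array, each control array and Cugbp1 siRNA replicate 2 (limma adjusted p = 0.0503 to 0.130).

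Creld2 and Manf encode small ER proteins that are induced and partly secreted under ER stress. Creld2 had 10.28, 10.35 and 10.29 with Cugbp1 siRNA, 10.21, 10.31 and 10.32 with Mbnl1 siRNA, and 10.15, 10.12 and 10.16 with control siRNA. Manf had 9.97, 10.02 and 10.09 with Cugbp1 siRNA, 9.99, 9.96 and 10.09 with Mbnl1 siRNA, and 9.83, 9.88 and 9.71 with control siRNA. For each gene, every siRNA array was above every control array. Creld2 changed by 0.16 ± 0.05 and 0.14 ± 0.05 (SE; limma adjusted p = 0.0188 and 0.0342), and Manf by 0.22 ± 0.06 and 0.21 ± 0.06 (limma adjusted p = 0.0151 and 0.0173). In each comparison, 9 of the 11 probe sets of Creld2 above the filter were higher, and only 4 of the 6 of Manf. After Cugbp1 siRNA, Creld2 lost its call without Cugbp1 siRNA replicate 2 or control replicate 1 or 2 (limma adjusted p = 0.0528 to 0.0754), and Manf without Cugbp1 siRNA replicate 3 or control replicate 1 or 3 (0.0546 to 0.103). After Mbnl1 siRNA, Creld2 lost it in every omission except that of Cugbp1 siRNA replicate 1 (0.0508 to 0.139), and Manf without Mbnl1 siRNA replicate 3 or control replicate 3 (0.0697 and 0.0894).

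Edem1 and Pdia4 were called after Mbnl1 siRNA and not after Cugbp1 siRNA. Edem1, whose product directs misfolded glycoproteins to degradation, had 9.65, 9.88 and 9.88 with Cugbp1 siRNA, 10.08, 9.99 and 10.04 with Mbnl1 siRNA, and 9.75, 9.77 and 9.80 with control siRNA. The Mbnl1 siRNA arrays were above all others, while Cugbp1 siRNA arrays lay on both sides of the controls. The changes were 0.03 ± 0.06 and 0.26 ± 0.06 (SE; limma adjusted p = 0.739 and 0.00827). The call was lost without control replicate 1 or 2 (limma adjusted p = 0.0558 and 0.0543). Pdia4, a disulfide isomerase gene, had 10.60, 10.85 and 10.82 with Cugbp1 siRNA, 10.91, 11.03 and 11.02 with Mbnl1 siRNA, and 10.76, 10.77 and 10.76 with control siRNA. Its Mbnl1 siRNA arrays were likewise above all others. The changes were -0.01 ± 0.07 and 0.23 ± 0.07 (SE; limma adjusted p = 0.947 and 0.0209). The call was lost without Mbnl1 siRNA replicate 2 or 3 or control replicate 3 (limma adjusted p = 0.0504 to 0.0570).

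**Figure D2:**
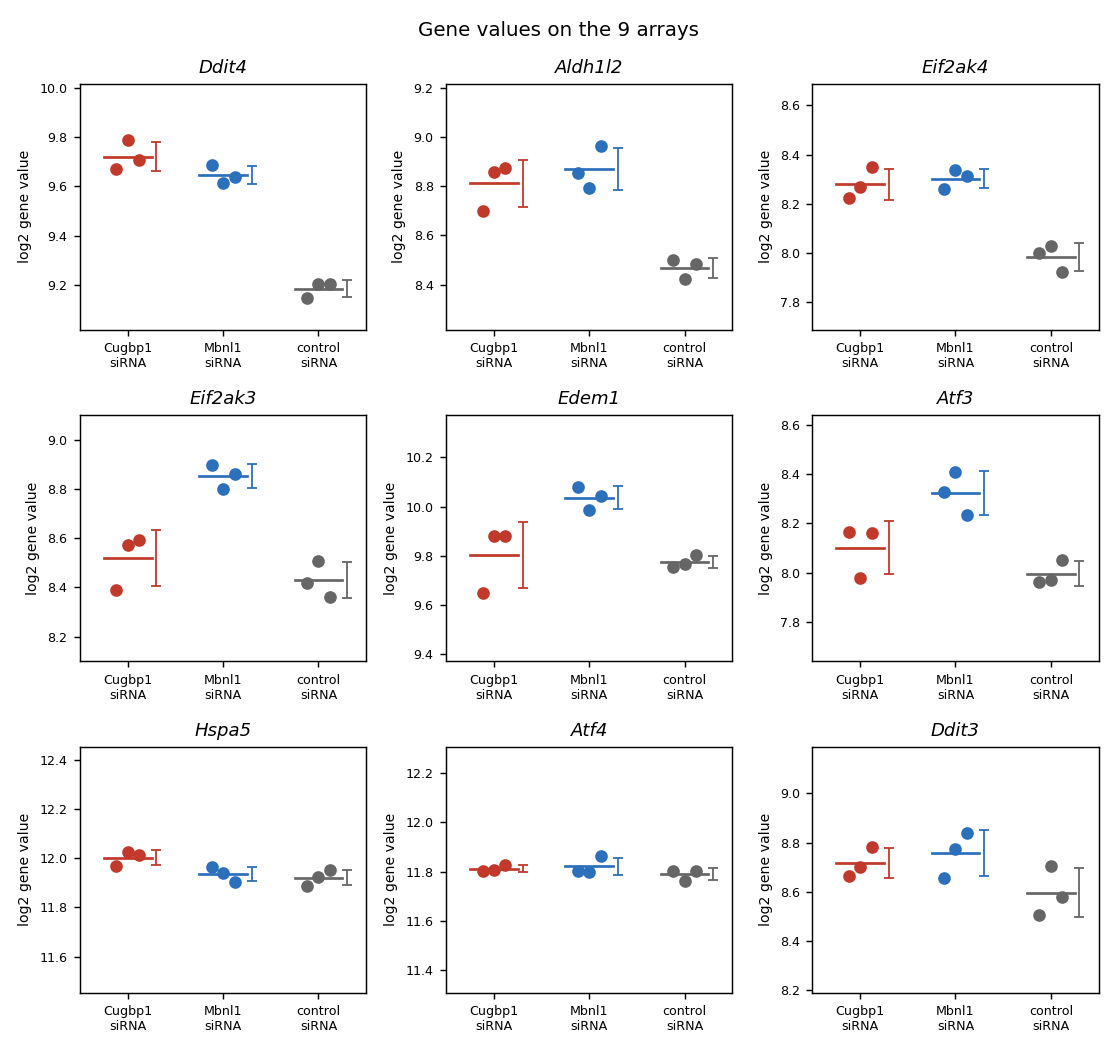
Log2 gene values (y axis) of 9 stress genes on each array, with Cugbp1 siRNA, Mbnl1 siRNA and control siRNA from left to right; points are arrays, horizontal lines are group means and bars at the side are the SD of 3 arrays. Ddit4, Aldh1l2 and Eif2ak4 lie above the controls in both siRNA groups, Eif2ak3, Edem1 and Atf3 have their highest arrays after Mbnl1 siRNA, and Atf4 stays between 11.76 and 11.86 on all 9 arrays.

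Of the 4 genes for stress sensors and eIF2 alpha kinases, 2 were higher after Cugbp1 siRNA and 3 after Mbnl1 siRNA (medians 0.14 and 0.24). Eif2ak4, which encodes GCN2, a kinase activated in amino acid shortage, had 8.22, 8.27 and 8.35 with Cugbp1 siRNA, 8.26, 8.34 and 8.31 with Mbnl1 siRNA, and 8.00, 8.03 and 7.92 with control siRNA. The siRNA arrays did not overlap the controls. The gene rose 1.23-fold and 1.25-fold (log2 0.30 ± 0.05 and 0.32 ± 0.05, SE; limma adjusted p = 0.00186 and 0.000922), with 28 and 30 of its 32 probe sets higher.

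Eif2ak3, which encodes the ER sensor kinase PERK, had 8.39, 8.57 and 8.59 with Cugbp1 siRNA, 8.90, 8.80 and 8.86 with Mbnl1 siRNA, and 8.42, 8.51 and 8.36 with control siRNA. All Mbnl1 siRNA arrays stood above all other arrays, and the Cugbp1 siRNA arrays overlapped the controls. The gene was 1.34-fold higher after Mbnl1 siRNA (log2 0.42 ± 0.06, SE; limma adjusted p = 0.000781), with 16 of 17 probe sets higher. After Cugbp1 siRNA its change was 0.09 ± 0.06 (limma adjusted p = 0.280). Without Cugbp1 siRNA replicate 1 that change was 0.22 and passed the test (limma adjusted p = 0.0220).

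Ern1, which encodes IRE1 alpha, the kinase and nuclease that splices Xbp1 mRNA, had 9.23, 9.16 and 9.26 with Cugbp1 siRNA, 9.15, 9.16 and 9.25 with Mbnl1 siRNA, and 8.98, 9.05 and 9.05 with control siRNA. Both siRNA groups lay above the controls, by 0.19 ± 0.05 and 0.16 ± 0.05 (SE; limma adjusted p = 0.0106 and 0.0203). Of its 29 probe sets above the filter, 24 and 23 were higher. The call after Mbnl1 siRNA was lost without Mbnl1 siRNA replicate 3 (limma adjusted p = 0.110) or control replicate 1 or 2 (0.0668 and 0.0531). Atf6, the gene of the membrane-bound transcription factor, had 9.59, 9.69 and 9.81 with Cugbp1 siRNA, 9.72, 9.67 and 9.67 with Mbnl1 siRNA, and 9.64, 9.60 and 9.59 with control siRNA. Its Cugbp1 siRNA arrays overlapped the controls and its Mbnl1 siRNA arrays did not, and neither change was called (0.09 and 0.08, limma adjusted p = 0.214 and 0.284). Without Cugbp1 siRNA replicate 1 the first change was 0.14 and passed (limma adjusted p = 0.0409).

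Of the 7 transcription factor genes, none was called after Cugbp1 siRNA and Atf3 alone after Mbnl1 siRNA (medians 0.11 and 0.08). Atf3, a stress-induced repressor and a target of ATF4, had 8.16, 7.98 and 8.16 with Cugbp1 siRNA, 8.33, 8.41 and 8.23 with Mbnl1 siRNA, and 7.96, 7.97 and 8.05 with control siRNA. The Mbnl1 siRNA arrays were the highest and the Cugbp1 siRNA arrays overlapped the controls. The changes were 0.11 ± 0.06 and 0.33 ± 0.06 (SE; limma adjusted p = 0.212 and 0.00306), and the call held when any 1 array was left out.

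Atf4, the central factor of the integrated stress response, had 11.80, 11.80 and 11.83 with Cugbp1 siRNA, 11.80, 11.80 and 11.86 with Mbnl1 siRNA, and 11.80, 11.76 and 11.80 with control siRNA. The groups overlapped, and the changes were 0.02 (95% interval -0.07 to 0.11) and 0.03 (95% interval -0.06 to 0.12; limma adjusted p = 0.676 and 0.542). Ddit3, which encodes CHOP, a factor linked to cell death under prolonged stress, had 8.67, 8.70 and 8.78 with Cugbp1 siRNA, 8.66, 8.77 and 8.84 with Mbnl1 siRNA, and 8.51, 8.70 and 8.58 with control siRNA. Each siRNA group overlapped the controls through control replicate 2. The changes of 0.12 ± 0.06 and 0.16 ± 0.06 were not called (SE; limma adjusted p = 0.164 and 0.0704). The second passed without Mbnl1 siRNA replicate 1 (0.21, limma adjusted p = 0.0436) or control replicate 2 (0.22, limma adjusted p = 0.0289).

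Xbp1, the factor made from IRE1-spliced mRNA, had 10.75, 10.96 and 10.88 with Cugbp1 siRNA, 11.04, 10.93 and 11.02 with Mbnl1 siRNA, and 10.87, 10.89 and 10.81 with control siRNA. The Mbnl1 siRNA arrays lay above the controls, but the changes of 0.01 and 0.14 were not called (limma adjusted p = 0.932 and 0.0883). The second passed without Cugbp1 siRNA replicate 1 (0.14, limma adjusted p = 0.0285). Atf5 and the C/EBP genes Cebpb and Cebpg, whose products pair with ATF4 or act beside it, changed by -0.00 to 0.20 after Cugbp1 siRNA and by -0.14 to 0.08 after Mbnl1 siRNA without a call. Atf5 passed after Cugbp1 siRNA without Cugbp1 siRNA replicate 3 (0.30, limma adjusted p = 0.0483), and Cebpb after Mbnl1 siRNA without control replicate 2 (-0.21, limma adjusted p = 0.0457).

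Of the 6 genes for feedback on translation and stress effectors, Ddit4 alone was called, in both comparisons (medians of the group 0.06 and 0.07). Ddit4, which encodes REDD1, an inhibitor of the growth kinase complex mTORC1, had 9.67, 9.79 and 9.71 with Cugbp1 siRNA, 9.69, 9.61 and 9.64 with Mbnl1 siRNA, and 9.15, 9.20 and 9.20 with control siRNA. Every siRNA array exceeded every control array, and all 5 probe sets were higher in each comparison. The gene rose 1.45-fold and 1.38-fold (log2 0.54 ± 0.05 and 0.46 ± 0.05, SE; limma adjusted p = 9.64e-05 and 7.99e-05), and leaving out single arrays gave 0.50 to 0.55 and 0.45 to 0.48.

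The other genes of this group were not called. Ppp1r15a, the stress-induced GADD34 subunit of the eIF2 alpha phosphatase, changed by 0.18 ± 0.08 and 0.20 ± 0.08 after Cugbp1 and Mbnl1 siRNA (SE; limma adjusted p = 0.0910 and 0.0594). It passed after Mbnl1 siRNA without Cugbp1 siRNA replicate 3 (limma adjusted p = 0.0407) or Mbnl1 siRNA replicate 2 (0.0275). Its constitutive counterpart Ppp1r15b changed by -0.04 and -0.06. Trib3, a pseudokinase gene and CHOP target, changed by 0.11 and -0.01, Sesn2, a sestrin gene, by 0.02 and 0.13, and Chac1, a glutathione-degrading enzyme gene, by -0.13 and 0.02. Trib3 passed after Cugbp1 siRNA without control replicate 2 (0.17, limma adjusted p = 0.0277), and Sesn2 passed after Mbnl1 siRNA without Cugbp1 siRNA replicate 1 (0.15, limma adjusted p = 0.0238) or control replicate 1 (0.17, limma adjusted p = 0.0446).

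Of the 5 genes for serine synthesis, mitochondrial folate metabolism and asparagine synthesis, Aldh1l2 was called after both siRNAs and Asns after Mbnl1 siRNA (medians of the group 0.08 and -0.02). Aldh1l2, a mitochondrial folate enzyme gene, had 8.70, 8.86 and 8.87 with Cugbp1 siRNA, 8.86, 8.79 and 8.96 with Mbnl1 siRNA, and 8.50, 8.42 and 8.48 with control siRNA. The siRNA arrays did not overlap the controls. It rose 1.27-fold and 1.32-fold (log2 0.34 ± 0.06 and 0.40 ± 0.06, SE; limma adjusted p = 0.00239 and 0.000816), with 25 of 27 probe sets higher in each comparison.

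Asns, the asparagine synthetase gene, had 10.64, 10.54 and 10.50 with Cugbp1 siRNA, 10.63, 10.65 and 10.76 with Mbnl1 siRNA, and 10.42, 10.54 and 10.50 with control siRNA. The Mbnl1 siRNA arrays were above the controls and the Cugbp1 siRNA arrays overlapped them. The changes were 0.08 ± 0.06 and 0.19 ± 0.06 (SE; limma adjusted p = 0.304 and 0.0203), and the call was lost without Mbnl1 siRNA replicate 3 (limma adjusted p = 0.0779) or control replicate 1 (0.0661). The serine synthesis genes Psat1 and Phgdh changed by 0.10 and 0.03 after Cugbp1 siRNA and by -0.02 and -0.05 after Mbnl1 siRNA, without a call. Mthfd2, another mitochondrial folate enzyme gene, changed by -0.10 and -0.09 after Cugbp1 and Mbnl1 siRNA, also without a call (limma adjusted p = 0.104 and 0.128).

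Compared directly, Cugbp1 and Mbnl1 siRNA differed in few stress genes. Eif2ak3 and Edem1, 2 of 38 genes (5.26%), were called, both lower after Cugbp1 siRNA than after Mbnl1 siRNA, while over all genes 9.34% were called, 4.27% higher and 5.07% lower. Eif2ak3 differed by -0.33 ± 0.06 (SE; limma adjusted p = 0.00920) and Edem1 by -0.23 ± 0.06 (limma adjusted p = 0.0444). The Eif2ak3 difference missed the threshold without Mbnl1 siRNA replicate 1 (-0.31, limma adjusted p = 0.0516). The Edem1 difference missed it in 8 of 9 omissions, all but that of Cugbp1 siRNA replicate 3 (limma adjusted p = 0.0606 to 0.166).

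Pdia4 and Atf3, called against control after Mbnl1 siRNA alone, differed between the siRNAs by -0.23 ± 0.07 and -0.22 ± 0.06 without passing (SE; limma adjusted p = 0.0554 and 0.0573). Pdia4 passed without Cugbp1 siRNA replicate 2 (-0.29, limma adjusted p = 0.0433). Asns differed by -0.12 ± 0.06 (limma adjusted p = 0.238). For these genes a difference between the knockdowns was thus not established. For Ddit4 the difference was 0.08 (95% interval -0.03 to 0.18), for Eif2ak4 -0.02 (-0.13 to 0.09) and for Aldh1l2 -0.06 (-0.19 to 0.08), intervals that still hold differences of up to 0.19 in size. The arrays of the siRNAs did not overlap for 12 stress genes, with Cugbp1 siRNA higher for 7 and lower for 5, while 15.1% and 14.4% of all genes did so, 29.5% in either direction.

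**Figure D3:**
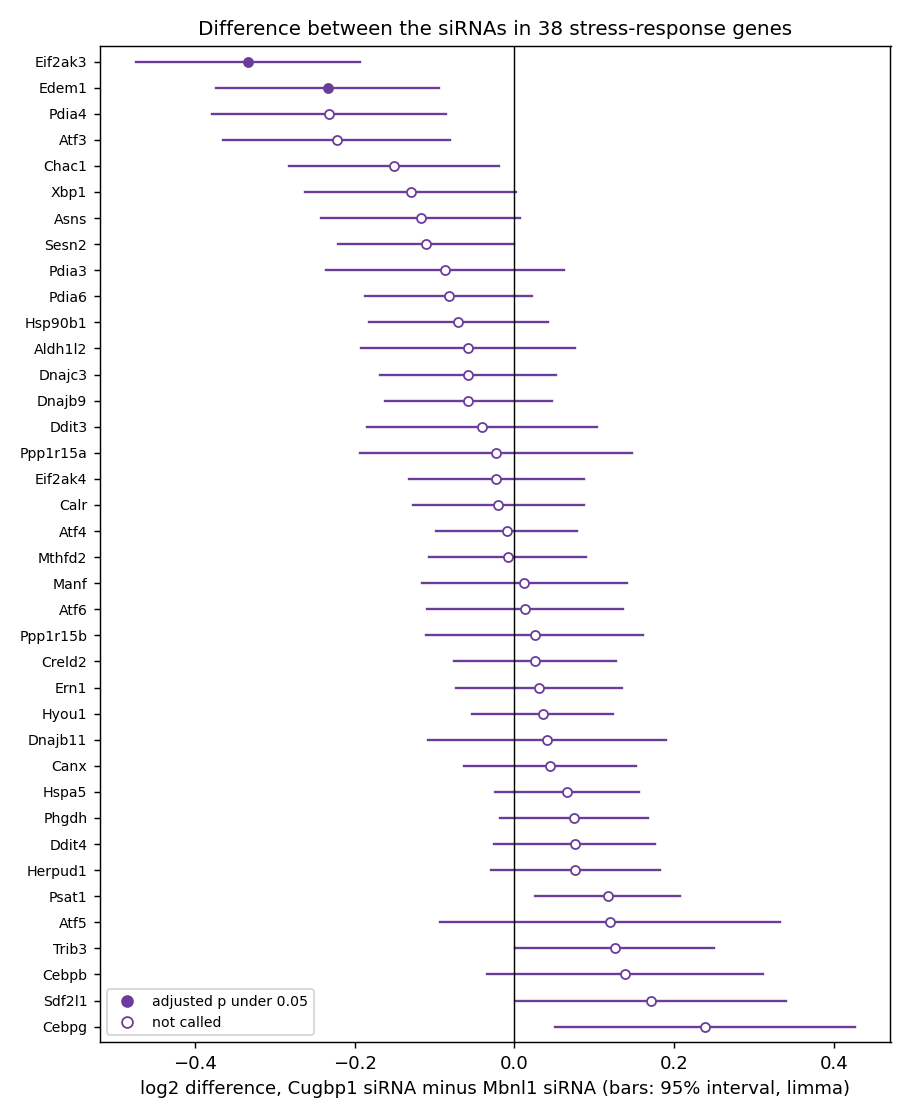
Log2 difference, Cugbp1 siRNA minus Mbnl1 siRNA (x axis), for each of the 38 stress genes, sorted by its value; points are limma estimates from 3 arrays per group, bars are 95% intervals and filled points passed an adjusted p of 0.05. Eif2ak3 at -0.33 and Edem1 at -0.23 are the filled points.

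How many genes were called depended on how the arrays were scaled to each other. With the deposited scaling, the median change of all genes was 0.05 after Cugbp1 siRNA and 0.04 after Mbnl1 siRNA. Centring each array on its median over all probe sets made these 0.09 and 0.08, with 34.8% of genes higher and 9.73% lower after Cugbp1 siRNA, and 33.5% and 11.3% after Mbnl1 siRNA. Centring on the named probe sets above the filter, chosen after seeing the data, made them -0.04 and -0.06, with 10.8% higher and 25.4% lower, and 13.6% and 31% after Mbnl1 siRNA. Quantile normalisation over the same probe sets gave -0.02 and -0.03, with 13% higher and 21.6% lower, and 15.8% and 26.8%. The direction of small changes, including some of the group medians given above, therefore depends on the scaling. The medians of the sensor and eIF2 alpha kinase genes stayed positive under every scaling in both comparisons with control.

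After Cugbp1 siRNA 3 stress genes were called higher under all 5 scalings, and after Mbnl1 siRNA 7. The share of all genes called higher under all 5 was not determined. The scaling with the fewest genes called higher still gave 10.8% and 13.6% of all genes. The 3 after Cugbp1 siRNA were Ddit4 (0.43 to 0.57), Aldh1l2 (0.25 to 0.38) and Eif2ak4 (0.18 to 0.34). The 7 after Mbnl1 siRNA were Ddit4 (0.35 to 0.50), Eif2ak3 (0.32 to 0.46), Aldh1l2 (0.28 to 0.45), Atf3 (0.21 to 0.36), Eif2ak4 (0.19 to 0.36), Edem1 (0.15 to 0.30) and Dnajb9 (0.14 to 0.29). The calls of Dnajb11, Manf, Creld2, Hyou1, Ern1, Pdia4 and Asns, and that of Dnajb9 after Cugbp1 siRNA, were each lost under at least 1 scaling. Falls appeared mainly under the scalings on the bright named probe sets, those above the filter. Mthfd2 was called lower there in both comparisons (-0.15 to -0.21) and with repeated quantile normalisation too (-0.12 in each, limma adjusted p = 0.0439 and 0.0490). Chac1 was called lower there after Cugbp1 siRNA (-0.19 and -0.24) and Cebpb after Mbnl1 siRNA (-0.27 and -0.26). Psat1, Phgdh and Ppp1r15b were called lower after Mbnl1 siRNA with centring on those probe sets (-0.14, -0.16 and -0.17). The change of Hspa5 after Cugbp1 siRNA ranged from 0.12 and a call with centring over all probe sets (limma adjusted p = 0.0410) to -0.01 with centring on the bright named ones. The Eif2ak3 difference between the siRNAs was called under all 5 scalings (-0.30 to -0.33).

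**Figure D4:**
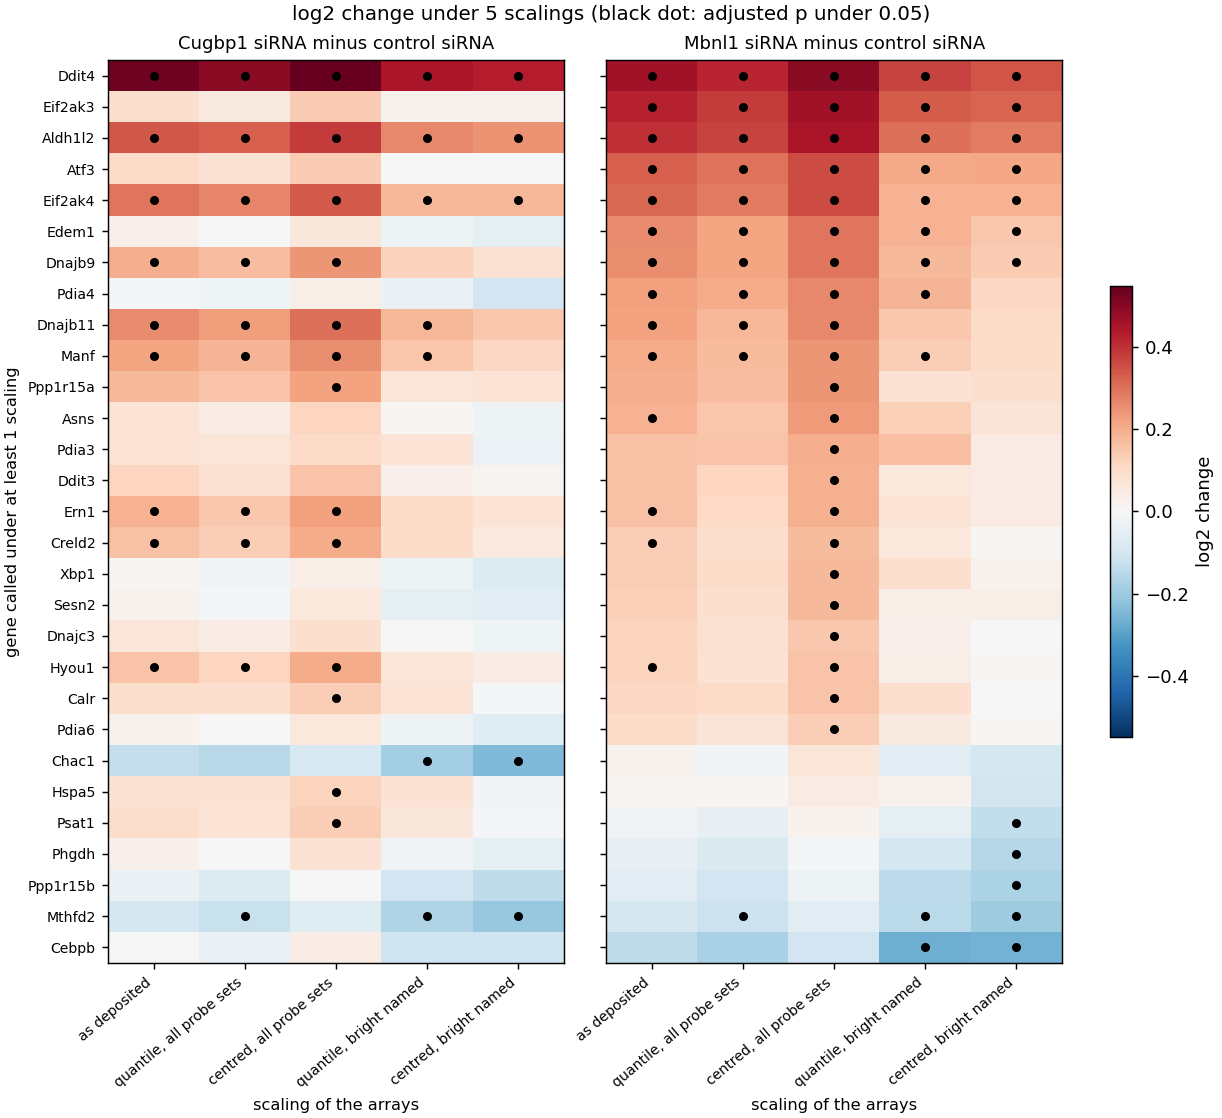
Log2 change (colour) of the stress genes called under at least 1 of 5 array scalings, after Cugbp1 siRNA (left panel) and Mbnl1 siRNA (right panel), each minus control siRNA; rows are genes, columns are scalings ("bright named" means named probe sets above the filter) and black dots mark an adjusted p under 0.05. Ddit4, Aldh1l2 and Eif2ak4 carry dots in every column of both panels, while the columns on bright named probe sets add falls such as Mthfd2.

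Single probe sets can leave the course of their gene where an exon or transcript end is used differently. Of 514 probe sets in 37 stress genes with at least 4 probe sets above the filter, 13 (2.53%) departed from their gene after Cugbp1 siRNA, 27 (5.25%) after Mbnl1 siRNA and 0 between the siRNAs (limma, adjusted p under 0.05 over all probe sets). Over all genes the shares were 3.75%, 6.98% and 0.0277%, so stress genes did not stand above the background. At an unadjusted p under 0.05, 26 probe sets (5.06%) differed between the siRNAs by limma, below the 6.63% of all probe sets.

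The departure with the smallest adjusted p in both comparisons was in Aldh1l2. Its probe set 4666076 had log2 values of 9.25, 9.62 and 9.56 with Cugbp1 siRNA, 9.70, 9.82 and 9.90 with Mbnl1 siRNA, and 10.47, 10.39 and 10.68 with control siRNA. It was lower on every siRNA array, by 1.04 and 0.71 in the means, while the gene value rose. Its departures of -1.38 ± 0.08 and -1.11 ± 0.08 (SE; limma adjusted p = 0.000246 and 0.000346) were called in all 9 omissions of an array and all 9 other settings run.

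Eif2ak4 held probe set 5415876, with 7.62, 7.90 and 7.64 with Cugbp1 siRNA, 7.20, 7.32 and 7.51 with Mbnl1 siRNA, and 7.92, 8.51 and 8.57 with control siRNA. Each siRNA group lay below the controls while the gene value rose, and the departures were -0.91 ± 0.17 and -1.31 ± 0.17 (SE; limma adjusted p = 0.0193 and 0.00272). The first was lost without Cugbp1 siRNA replicate 3 or control replicate 3. Ppp1r15b, a gene not called itself, held probe set 4668983, with 8.66, 8.88 and 8.83 with Cugbp1 siRNA, 8.81, 8.90 and 9.21 with Mbnl1 siRNA, and 8.21, 8.26 and 8.32 with control siRNA. Here the siRNA arrays were all higher, with departures of 0.57 ± 0.10 and 0.77 ± 0.10 (SE; limma adjusted p = 0.0165 and 0.00283), the first lost without Cugbp1 siRNA replicate 2 or 3.

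In Ern1, probe set 5281778 departed by -0.61 ± 0.12 and -0.67 ± 0.12 after Cugbp1 and Mbnl1 siRNA (SE; limma adjusted p = 0.0214 and 0.00980), the first lost without Cugbp1 siRNA replicate 1 or 3 or control replicate 3. In Eif2ak3, probe set 5167063 departed by -0.72 ± 0.14 after Mbnl1 siRNA (limma adjusted p = 0.0141), a call lost without Mbnl1 siRNA replicate 3. These 5 probe sets were chosen for description after their values were seen. No exon positions were used, so a call does not say which exon a probe set covers.

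**Figure D5:**
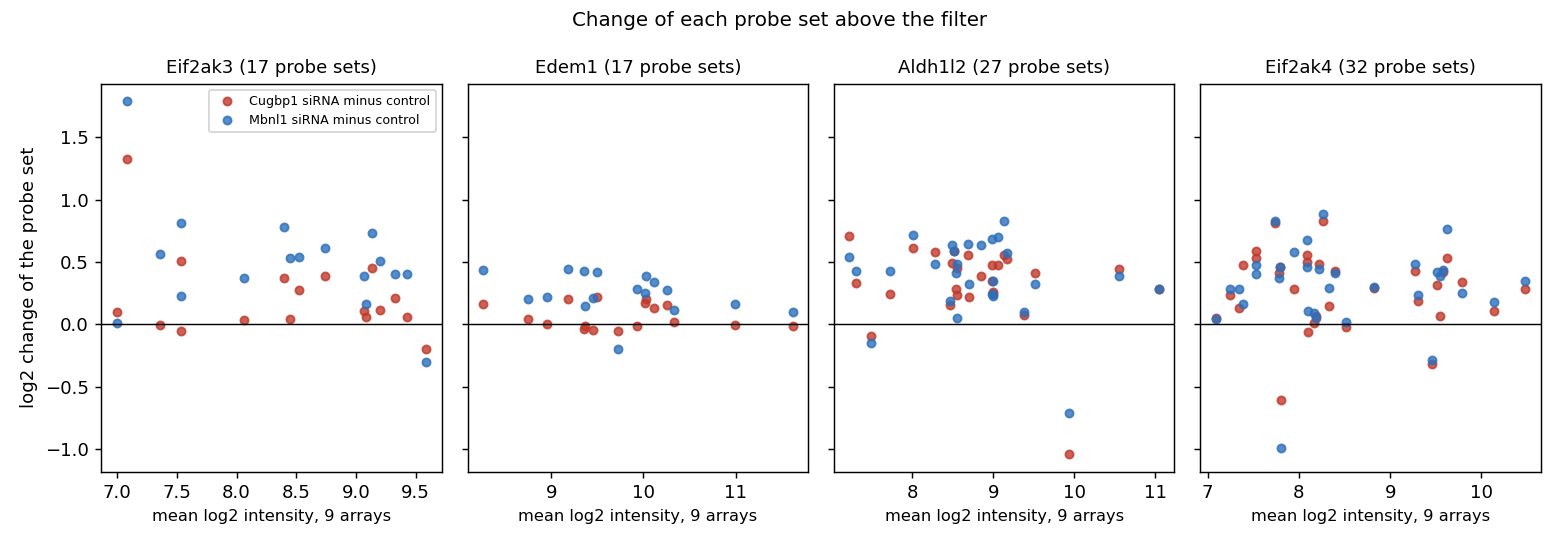
Log2 change of each probe set above the filter (y axis) against its mean log2 intensity over 9 arrays (x axis) for Eif2ak3, Edem1, Aldh1l2 and Eif2ak4; red points are Cugbp1 siRNA minus control siRNA and blue points Mbnl1 siRNA minus control siRNA, both from means of 3 arrays. Most points lie above 0 in Aldh1l2 and Eif2ak4, with a single probe set far below 0 in each, and blue lies above red through most of Eif2ak3 and Edem1.

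Other genes of these pathways are set here beside all genes tested, of which 26% were higher and 12.7% lower after Cugbp1 siRNA, and 26.9% higher and 14.6% lower after Mbnl1 siRNA. Of 45 further genes of ER folding, export and degradation, 9 were higher and 2 lower after Cugbp1 siRNA, and 14 higher and 2 lower after Mbnl1 siRNA (medians 0.07 and 0.09). The shares higher were 20%, below that of all genes, and 31.1%, above it, and neither difference was tested. The shares called either way, 24.4% and 35.6%, lay below the 38.7% and 41.5% of all genes. Fkbp14, a collagen-folding prolyl isomerase gene, was called in both comparisons (0.47 ± 0.04 in each, SE; limma adjusted p = 0.000104 and 4.46e-05). After Cugbp1 siRNA, Derl3 (-0.35), Stt3b (0.27) and Sec63 (0.27) followed in size. After Mbnl1 siRNA, they were Mia3 (0.45), Selenok (0.31) and Sel1l (0.28). Derl3 was a weak signal, with 4 of its 12 probe sets above the filter and a median log2 level of 6.77 over the 12.

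Of 31 amino acid transport, metabolism and aminoacyl-tRNA synthetase genes of the ATF4 programme, 12 were higher and 2 lower after Cugbp1 siRNA, and 6 higher and 0 lower after Mbnl1 siRNA (medians 0.10 and 0.05). The shares higher were 38.7%, above that of all genes, and 19.4%, below it, and neither difference was tested. The glycine transporter gene Slc6a9 (0.39), the cystine transporter gene Slc7a11 (0.33), Gpt2 (0.32) and Aldh18a1 (0.30) had the largest called changes after Cugbp1 siRNA. After Mbnl1 siRNA they were those of Aldh18a1 (0.40), Slc7a11 (0.36), Slc1a4 (0.30) and Gpt2 (0.26).

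Among 12 genes of eIF2, eIF2B and other eIF2 alpha regulation, 5 were higher after Cugbp1 siRNA and 4 after Mbnl1 siRNA, with 0 lower (medians 0.15 and 0.07). These shares, 41.7% and 33.3%, were above those of all genes called higher, and the difference was not tested. The haem-regulated eIF2 alpha kinase gene Eif2ak1 rose by 0.33 and 0.32. Eif2b2 rose by 0.31 and 0.14, and Nck1 by 0.18 and 0.16. Eif2b3 (0.31) was called after Cugbp1 siRNA, and the double-stranded RNA kinase gene Eif2ak2 (0.34) after Mbnl1 siRNA.

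Of 19 other stress effectors, 5 were higher and 3 lower after Cugbp1 siRNA, and 5 higher and 2 lower after Mbnl1 siRNA (medians 0.04 in each). The share higher, 26.3% in each, lay near that of all genes. Txnip, which encodes a thioredoxin-binding protein, was lower (-0.42 and -0.25), as was the lipoprotein receptor gene Vldlr (-0.29 and -0.23). Vldlr was a weak signal, with 6 of its 33 probe sets above the filter and a median log2 level of 5.24 over the 33. The ER-stress transcription factor gene Creb3l2 was higher (0.33 in each), as was Mbtps2 (0.32 and 0.22), a protease that cuts ATF6. The 18 cytosolic and mitochondrial heat shock genes had medians of 0.02 and -0.01, with 11.1% and 16.7% called, below the shares of all genes. Of them Hsph1 (0.19) was higher and Hspb1 (-0.27) lower after Cugbp1 siRNA, and after Mbnl1 siRNA Dnaja1 (0.14) was higher and Hspd1 (-0.30) and Hspb1 (-0.29) were lower.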

How the data were processed

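RNA of 9 C2C12 samples was measured on exon arrays. The authors deposited linear intensity values of 1195555 probe sets, made with RMA (a background correction, normalisation and summary of probes) in Affymetrix Expression Console with build mm9, per the submitters' processing notes. The sources used here give no versions. Groups came from the sample titles. The deposited intensities were log2-transformed and otherwise used as they stood. Probe sets with 1 symbol in the platform annotation (316997) were named through RefSeq symbols of GRCm38.p6, so Manf and Ppp1r15a were found through older symbols.

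Probe sets whose mean reached the 75th percentile of all (log2 7.00, intensity 128) were kept, and a gene with at least 3 of them was summarised by Tukey median polish. All 9 arrays were fitted together in limma 3.58.1 (R 4.3.3) with 3 contrasts and Benjamini-Hochberg adjustment over 12646 genes, with calls at an adjusted p under 0.05. Intervals cover 95%. A departing probe set was tested as its value minus its gene value on the same array, by limma with a mean-variance trend, over 158713 probe sets of genes with at least 4. The gene summary, the gene test and the probe set test were run on simulated data, with changes planted in the Cugbp1 siRNA group only. The naming of probe sets, the filter, the scalings, the replicate block and the promoter search were not simulated. Alternatives changed the scaling, the filter, the summary, the variance moderation, the replicate block and the arrays included. Precision is limited by there being 3 arrays a group.

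The 39 symbols and the other gene lists were chosen with earlier results of these data known. Per-array values are given for every stress gene called in any contrast and for Hspa5, Xbp1, Ern1, Atf6, Eif2ak3, Eif2ak4, Atf4 and Ddit3, and other lists name at most the 4 largest called changes in each comparison with control. Protein sequences were not used here.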

Additional observations from a re-analysis of the deposited data

Results flagged for a closer look

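The responses to the siRNAs differed by a direct test in 2 stress genes. Eif2ak3 was lower after Cugbp1 siRNA than after Mbnl1 siRNA by a log2 difference of -0.33 (limma adjusted p = 0.00920), and Edem1 by -0.23 (limma adjusted p = 0.0444). A background of 9.34% of all genes passed the same test. Eif2ak3 and Edem1 each stood higher on all 3 Mbnl1 siRNA arrays than on all 3 Cugbp1 siRNA arrays, as did 14.4% of all genes. The Edem1 call was lost in most omissions of a single array and with the replicate block (limma adjusted p = 0.0671). Among these omissions, the Eif2ak3 call was lost only without Mbnl1 siRNA replicate 1 (limma adjusted p = 0.0516).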

How the results depend on the processing

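No stress gene called with the deposited scaling turned its sign under any setting run. Genes called only under another setting could, as Hspa5 (0.12 and -0.01) and Psat1 (0.14 and -0.01) after Cugbp1 siRNA and Psat1 after Mbnl1 siRNA (0.02 and -0.14), with centring over all probe sets and over the bright named ones. Stress genes called after Cugbp1 siRNA numbered 9, all higher. With arrays centred on the bright named probe sets they numbered 5, of which 3 were higher and 2 lower. That centring gave 10.8% of all genes higher and 25.4% lower. After Mbnl1 siRNA the stress genes called numbered 14, all higher. With arrays centred on their median over all probe sets they numbered 22, all higher, beside 33.5% of all genes higher and 11.3% lower. Between the siRNAs the stress genes called numbered 2, and 1 with centring over all probe sets, 0 without the filter on dim probe sets and 4 with another variance moderation. Departing probe sets numbered 13 after Cugbp1 siRNA, and 1 without the filter and 20 with a plain mean of probe sets. After Mbnl1 siRNA they numbered 27, and 3 without the filter. Without the filter more probe sets were tested. Leaving out single arrays gave 7 to 11, 7 to 19 and 0 to 2 stress genes after Cugbp1 siRNA, after Mbnl1 siRNA and between them, and 1 to 15, 7 to 34 and 0 departing probe sets. The shares of all genes called in these omissions, and with the replicate block below, are not given here. After Mbnl1 siRNA, 7 genes and 7 probe sets were left without Mbnl1 siRNA replicate 3, 9 and 14 without control replicate 3, and 14 and 13 probe sets without Mbnl1 siRNA replicates 1 and 2. After Cugbp1 siRNA, 1 probe set was left without Cugbp1 siRNA replicate 3, 6 without control replicate 3, and 8 without each of Cugbp1 siRNA replicates 1 and 2 and Mbnl1 siRNA replicates 1 and 2. Between the siRNAs, 0 genes were left without Mbnl1 siRNA replicate 1, and 1 without each other Mbnl1 siRNA array, each control array or Cugbp1 siRNA replicate 1. The labels do not say whether replicate numbers pair the samples. Same-numbered arrays of different groups correlated at -0.10 to 0.12 in their deviations from group means, and differently numbered ones at -0.13 to 0.09. With 3 arrays behind each group mean, these values cannot settle whether the numbers pair the samples. With the replicate number as a block, 9, 15 and 2 stress genes and 9, 24 and 0 probe sets were called. Between the siRNAs Edem1 then missed the threshold (limma adjusted p = 0.0671) and Pdia4 passed (0.0447), and after Mbnl1 siRNA Hyou1 missed it (0.0584) while Ddit3 (0.0452) and Ppp1r15a (0.0342) passed. The causes of these shifts were not tested. Most changes were under 0.3 log2 units, so 3 arrays per group leave many of them near the threshold.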
